A study of Homo sapiens with 6 samples.

Results

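The genes described here are 9 transcription factors of the proneural and neuroendocrine programmes: NEUROG1, NEUROG2, ATOH1, NEUROD2, NEUROD4, NHLH1, NHLH2, INSM1 and MYT1. They were taken as a given list and found by symbol among the 60664 genes of the count files; all 9 were present. The cells were D283 Med, an established Group 3 medulloblastoma line with an amplified MYC gene. In the 3 KD libraries the cells had been transfected with an LNA GapmeR directed at the long non-coding RNA lncMB3, and in the 3 SCR libraries with a control LNA GapmeR. An LNA GapmeR is an antisense oligonucleotide that recruits RNase H to its target transcript, and both groups of cells therefore carried one. PolyA+ RNA was sequenced. All libraries came from 1 cell line. The level of lncMB3 itself was not analysed here, because the labels name no gene identifier for it. An effect of losing lncMB3 and another effect of that GapmeR cannot be told apart in this design.

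Proneural factors are basic helix-loop-helix (bHLH) proteins. They bind DNA at E-boxes as dimers with the widely expressed E-proteins, and they start the switch from dividing progenitor to neuron. ID proteins bind the same E-proteins but lack the DNA-binding basic region, and HES and HEY proteins, many of them effectors of Notch signalling, repress proneural genes. INSM1 and MYT1 are zinc finger factors of a different structure that act in the same neurogenic and endocrine lineages. In the developing cerebellum, ATOH1 marks the progenitors of granule neurons, the cells from which the Sonic hedgehog subgroup of medulloblastoma arises.

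In D283 Med cells 1 of the 9 factors was expressed at a substantial level. NEUROG1 held 94.1% of the counts of the 9 genes over the 6 libraries. MYT1 and NEUROD2 were near 2 CPM (the usual depth-scaled read count, here with TMM scaling), INSM1, NHLH1 and NHLH2 were below 1 CPM in every library, NEUROG2 had 2 counts in all, and ATOH1 and NEUROD4 had none. Of the 9, 4 had enough counts to be tested between KD and SCR libraries, and 0 of these passed. Over all tested genes 31.7% passed. Among the genes that work with or against these factors, ID1, ID2 and ID3 were higher in KD libraries, and NEUROD1, HES6, SRRM4 and PROX1 were lower.

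Sequences upstream of the start sites are shown for 5 genes: NEUROG1, the member with the highest level; NEUROG2, its paralog with almost no counts; NEUROD4 and ATOH1, the members with none; and NEUROD1, the family relative that fell in KD libraries. They are the 250 bases before each RefSeq start site (GRCh38.p14), 5′ to 3′ on the gene's strand. Capitals mark the E-box CANNTG, a palindromic pattern searched on both strands.
NEUROG1 (chr5:135535965-135536214, minus strand): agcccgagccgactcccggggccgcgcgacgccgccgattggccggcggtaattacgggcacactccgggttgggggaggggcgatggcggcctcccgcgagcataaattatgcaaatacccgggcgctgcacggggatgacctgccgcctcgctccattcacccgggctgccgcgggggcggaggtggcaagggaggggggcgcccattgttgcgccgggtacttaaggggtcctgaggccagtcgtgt
NEUROG2 (chr4:112516181-112516430, minus strand): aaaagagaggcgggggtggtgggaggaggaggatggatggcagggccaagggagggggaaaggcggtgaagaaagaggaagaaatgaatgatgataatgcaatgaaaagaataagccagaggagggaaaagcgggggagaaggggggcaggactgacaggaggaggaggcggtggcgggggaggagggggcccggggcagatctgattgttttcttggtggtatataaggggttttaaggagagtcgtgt
NEUROD4 (chr12:55019724-55019973, plus strand): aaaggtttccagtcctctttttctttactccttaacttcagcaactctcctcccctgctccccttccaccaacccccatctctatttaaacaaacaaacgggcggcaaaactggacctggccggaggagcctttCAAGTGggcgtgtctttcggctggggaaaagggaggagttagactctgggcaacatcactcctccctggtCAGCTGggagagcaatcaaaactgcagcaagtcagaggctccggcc
ATOH1 (chr4:93828503-93828752, plus strand): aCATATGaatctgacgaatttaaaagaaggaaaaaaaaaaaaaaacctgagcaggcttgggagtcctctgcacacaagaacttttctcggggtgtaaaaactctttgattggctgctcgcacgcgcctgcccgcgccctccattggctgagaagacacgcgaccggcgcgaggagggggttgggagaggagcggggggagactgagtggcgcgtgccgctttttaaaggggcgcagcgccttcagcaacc
NEUROD1 (chr2:181680518-181680767, minus strand): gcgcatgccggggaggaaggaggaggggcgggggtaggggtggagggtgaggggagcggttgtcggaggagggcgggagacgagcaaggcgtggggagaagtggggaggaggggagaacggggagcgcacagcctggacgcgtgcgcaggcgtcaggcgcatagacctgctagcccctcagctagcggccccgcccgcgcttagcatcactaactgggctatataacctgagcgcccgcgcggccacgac

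The NEUROG1 window held 30 CG dinucleotides and 70.4% G and C, against a median of 11 and 58.0% over 35114 RefSeq windows. The NEUROD1 window was similar, with 24 CG dinucleotides and 70.0% G and C. NEUROD4 had 6, NEUROG2 had 7 and ATOH1, which gave no count, had 18. No CANNTG was found in the windows of NEUROG1, NEUROG2 or NEUROD1. NEUROD4 held 2, starting 116 and 46 bases before the start site, and ATOH1 held 1, starting 249 bases before it. At least 1 such E-box was present in 61.8% of all windows. The NEUROG1 and NEUROG2 windows end in the same 8 bases, agtcgtgt, and no other window of the 35114 does. RefSeq windows were found for 8 of the 9 members, and INSM1 had none.

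Library totals ran from 7765826 (KD library 1) to 20035834 counts, so low genes were measured least precisely in KD library 1. A level of 3 counts, about the upper 1-sided 95% limit for a count of 0, corresponds to 0.390 CPM in that library. In the others it corresponds to 0.147 to 0.176 CPM. These limits cover counting error only. Whether the 3 libraries of each group are separate cultures is not stated, so p-values measure the spread between libraries, which may be technical. Defining markers of the labelled tumour type were present: all 8 Group 3 markers had counts in every library, among them MYC, OTX2, CRX and IMPG2. These markers also differed between the groups: 5 of the 8 fell (IMPG2 1.51-fold, EYS 1.75-fold, NRL 1.61-fold, CRX 1.36-fold and OTX2 1.21-fold), GABRA5 rose 1.33-fold, and MYC and NPR3 did not pass (edgeR adjusted p = 0.826 and 0.391). Markers of the other subgroups were present in part. Of 4 WNT subgroup markers WIF1, DKK2 and LEF1 had no count in any library, and AXIN2 was at 16.8 ± 0.535 CPM in KD and 18.5 ± 0.697 CPM in SCR libraries. Of 4 Group 4 markers KCNA1 had no count, EOMES had at most 4 counts a library, UNC5D fell 2.23-fold at a mean of 0.616 CPM in KD and 1.25 CPM in SCR libraries, and RBM24 averaged 10.2 CPM in KD and 8.90 CPM in SCR libraries (edgeR adjusted p = 0.284). Of 5 Sonic hedgehog subgroup markers 4 were tested and 2 fell: GLI1 averaged 2.88 CPM in KD and 6.69 CPM in SCR libraries (2.29-fold lower, edgeR adjusted p = 0.000487), and PTCH1 averaged 20.3 CPM in KD and 26.7 CPM in SCR libraries (1.32-fold lower, adjusted p = 0.0213). GLI2 was at 32.3 CPM in KD and 36.6 CPM in SCR libraries (edgeR adjusted p = 0.167). Immune markers summed to 0.650 to 2.19 CPM in KD libraries and 1.17 to 1.91 CPM in SCR libraries, with CD3E and AIF1 at 0. Endothelial markers summed to 0.886 to 1.82 CPM in KD and 1.47 to 2.52 CPM in SCR libraries. The glial markers MBP and MOG had no count in any library, and GFAP had at most 3 counts. The epithelial sum, mostly KRT8, was 30.3 to 39.0 CPM in KD and 48.5 to 62.9 CPM in SCR libraries, and the mesenchymal sum, mostly COL1A1 and PDGFRB, was 27.4 to 32.8 CPM in KD and 35.2 to 38.8 CPM in SCR libraries. The part of any of these markers in the results was not tested. In bulk RNA fewer cells that express a gene and less RNA per cell cannot be told apart.

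NEUROG1 is a single-exon gene on chromosome 5 (chr5:135534282-135535949, minus strand; gene positions here are from GENCODE 29 on GRCh38). It encodes neurogenin 1, which starts neurogenesis in sensory and other neural lineages. It was at 84.3, 88.2 and 70.9 CPM in KD libraries 1 to 3 and at 78.4, 80.1 and 93.9 CPM in SCR libraries 1 to 3. The groups overlapped, with KD library 3 the lowest and SCR library 3 the highest of the 6. Means were 81.1 ± 9.06 CPM in KD and 84.2 ± 8.51 CPM in SCR libraries (SD, n = 3 each). The log2 change was -0.06 ± 0.10 (SE; edgeR's quasi-likelihood test, Benjamini-Hochberg adjusted p = 0.710), with a 95% interval of the fold from 0.828 to 1.12. Without KD library 3 the log2 change was 0.03, and without SCR library 3 it was also 0.03, so its sign rests on single libraries. Its nearest annotated protein-coding neighbours, TIFAB 81883 bases and CXCL14 34730 bases away, had 1 count and 0 counts in all 6 libraries together.

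Per kilobase of annotated exon, NEUROG1 averaged 49.5 CPM over the 6 libraries, rank 705 of 19890 protein-coding genes, and ran from 42.5 to 56.3. MYT1 was next at 0.340 CPM per kilobase, 146 times less. NEUROD2 (0.306), INSM1 (0.187), NHLH1 (0.152), NHLH2 (0.0381) and NEUROG2 (0.00760) followed, on the same scale. Below NEUROG1 each neighbour in this order overlapped the next over the 6 libraries, for example 0.284 to 0.470 for MYT1 and 0.227 to 0.417 for NEUROD2. These ranges alone do not resolve the order of neighbours, and genes were not compared within each library. Genes farther apart did separate: the lowest library of MYT1 (0.284) was above the highest of NHLH1 (0.265), and the lowest of NEUROD2 (0.227) was above the highest of NHLH2 (0.0621).

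**Figure D1:**
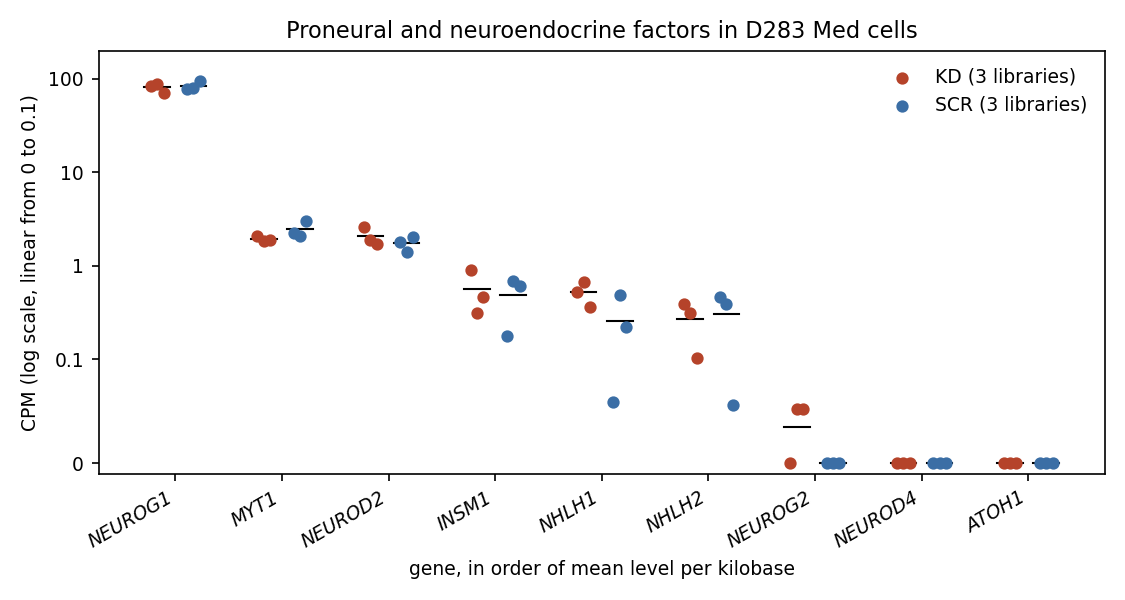
CPM of each of the 9 genes in every library, on a log axis that is linear from 0 to 0.1, with genes in order of their mean level per kilobase; points are libraries (KD left, SCR right) and bars are group means. NEUROG1 lies between 70.9 and 93.9 CPM in all 6 libraries, no other member exceeds 3.02 CPM, and NEUROD4 and ATOH1 lie at 0.

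The other early proneural factors were at or near 0. NEUROG2 (chr4:112513516-112516172, minus strand), which specifies neurons of the cortex and spinal cord, had 0, 1 and 1 counts in KD libraries 1 to 3 and 0 in each SCR library. ATOH1 (chr4:93828753-93830964, plus strand) had 0 counts in all 6 libraries. The same limit of 3 counts corresponds to 0.0296 CPM over the libraries together. At this depth no difference in NEUROG2 or ATOH1 between the groups could be detected, and no fold is given.

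NEUROD factors act after the neurogenins, in neurons that are differentiating. NEUROD2 (chr17:39603536-39609777, minus strand) was at 2.60, 1.88 and 1.72 CPM in KD libraries and 1.81, 1.42 and 2.01 CPM in SCR libraries. The groups overlapped, and the shallowest library, KD library 1, was the highest with 20 counts. The log2 change was 0.19 ± 0.27 (edgeR adjusted p = 0.627), with a 95% interval from -0.39 to 0.76. NEUROD4 (chr12:55019945-55030014, plus strand) had 0 counts in all 6 libraries, with the same limits as ATOH1.

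NHLH1 and NHLH2 are bHLH factors of newly formed neurons, and neither passed the low-count filter. NHLH1 (chr1:160367067-160372848, plus strand) had 4, 13 and 7 counts in KD libraries and 1, 10 and 4 in SCR libraries. NHLH2 (chr1:115836377-115843917, minus strand) had 3, 6 and 2 counts in KD libraries and 8, 8 and 1 in SCR libraries. Both overlapped between the groups. With no low-count filter the log2 change was 0.94 ± 0.59 for NHLH1 (edgeR adjusted p = 0.322; 95% interval -0.22 to 2.10) and -0.32 ± 0.70 for NHLH2 (adjusted p = 0.789; -1.69 to 1.04), intervals wide enough to hold a change of 2-fold in 1 direction or both.

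INSM1 (chr20:20368121-20370949, plus strand), a single-exon gene, encodes a zinc finger repressor that marks neuroendocrine cells and tumours. It had 7, 6 and 9 counts in KD libraries and 3, 14 and 11 in SCR libraries. On the CPM scale these were 0.911, 0.313 and 0.469 in KD libraries and 0.176, 0.685 and 0.615 in SCR libraries. The groups overlapped, with KD library 1 the highest and SCR library 1 the lowest. The log2 change was -0.02 ± 0.51 (edgeR adjusted p = 0.979), and its 95% interval, -1.10 to 1.06, includes 2-fold changes either way. MYT1 (chr20:64102394-64242253, plus strand) encodes a zinc finger factor that promotes neuronal differentiation. It was at 2.08, 1.83 and 1.88 CPM in KD libraries and at 2.22, 2.10 and 3.02 CPM in SCR libraries. All KD libraries lay below all SCR libraries, and MYT1 was the 1 member of 4 tested whose groups did not overlap, where 46% of all tested genes had groups that did not overlap. The gap was small: KD library 1 and SCR library 2 were the closest. The log2 change of -0.36 ± 0.24 did not pass (edgeR adjusted p = 0.278; 95% interval -0.88 to 0.16). SCR library 3 stood highest, and without it the log2 change was -0.18.

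**Figure D2:**
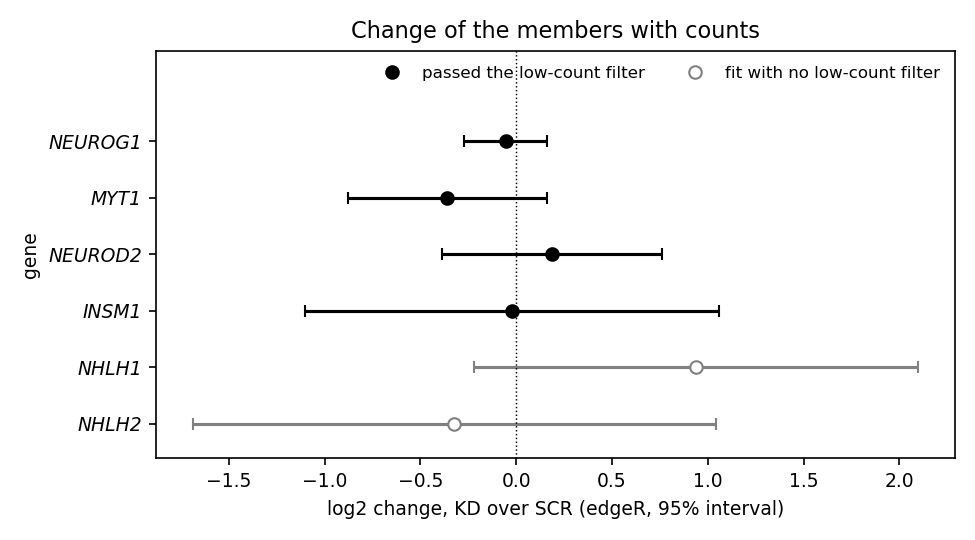
Log2 change, KD over SCR, with its 95% interval from edgeR, for the 6 members with more than 2 counts; filled points passed the low-count filter and open points come from the fit without it. Every interval includes 0, and NEUROG1 has the narrowest, from -0.27 to 0.16.

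Of the 9 members, 4 passed the low-count filter and 0 of these were called by edgeR at an adjusted p of 0.05, where 31.7% of all 14673 tested genes were called. The 4657 calls over all genes fell to 2704 without SCR library 2 and 2891 without SCR library 3. None of the 4 had an unadjusted p under 0.05, and DESeq2 and limma-voom also called 0. The summed level of the 9 genes was 75.5 to 93.2 CPM in KD libraries and 83.2 to 99.9 CPM in SCR libraries, which overlap. Among all tested genes 15.9% were called higher and 15.9% lower, and these shares stand beside each list below.

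Among other proneural and neuronal bHLH genes NEUROD1 was the 1 gene that passed the test. Of 13 listed 6 were tested, 0 rose and 1 fell. NEUROD1, a NEUROD family factor of neurons, photoreceptors and pancreatic endocrine cells, was at 18.3, 16.7 and 14.7 CPM in KD libraries and 32.4, 33.6 and 36.9 CPM in SCR libraries. The groups were far apart, and it fell 2.09-fold (log2 change -1.07 ± 0.11, edgeR adjusted p = 3.26e-05). The gene CERKL overlaps it on the same strand, with 2, 2 and 7 counts in KD and 8, 13 and 17 in SCR libraries. Relative to NEUROG1 in the same library, a measure that needs no scaling, NEUROD1 had 0.218, 0.190 and 0.207 counts per NEUROG1 count in KD libraries and 0.413, 0.420 and 0.393 in SCR libraries, 1.996-fold less in KD. The groups did not overlap, and the exact 2-sided permutation p of 0.1 is the smallest that 3 against 3 libraries can give. This ratio was chosen after the values were seen.

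ATOH8, a more distant relative of ATOH1, was well expressed at 171 ± 11.1 CPM in KD and 147 ± 4.83 CPM in SCR libraries. Its log2 change of 0.21 ± 0.08 did not pass in edgeR (adjusted p = 0.0600) but passed in DESeq2 (adjusted p = 0.0439) and without SCR library 1 (adjusted p = 0.0476). BHLHE22, a repressor of the same superfamily, had 2.80 ± 0.292 CPM in KD and 1.83 ± 0.412 CPM in SCR libraries (SD, n = 3 each; edgeR adjusted p = 0.0859). NEUROG3, NEUROD6, PTF1A, ASCL2 and BHLHE23 had no count in any library.

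The E-proteins, with which proneural factors pair, gave 0 calls among 3 tested genes by edgeR, DESeq2 and limma-voom, and 0 with an unadjusted p under 0.05. TCF3 was at 98.0 ± 8.13 CPM in KD and 104 ± 3.50 CPM in SCR libraries, TCF12 at 91.9 ± 12.8 CPM in KD and 94.0 ± 2.45 CPM in SCR libraries, and TCF4 at 46.9 ± 4.71 CPM in KD and 47.0 ± 2.97 CPM in SCR libraries. The 95% intervals of their log2 changes lay within -0.26 and 0.20.

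The ID genes, inhibitors of these dimers, were higher. Of 4 tested 3 rose and 0 fell, with a median log2 change of 0.60 against 0.00 over all tested genes. ID3 was at 176, 186 and 183 CPM in KD libraries and 127, 103 and 100.03 CPM in SCR libraries (1.65-fold, edgeR adjusted p = 0.000184). ID1 was at 149, 166 and 143 CPM in KD libraries and 106, 102 and 96.8 CPM in SCR libraries (1.503-fold, adjusted p = 0.000318). In both genes every KD library exceeded every SCR library. ID2 averaged 11.9 ± 0.887 CPM in KD and 7.73 ± 1.45 CPM in SCR libraries (1.52-fold, adjusted p = 0.00641). ID2-AS1 overlaps ID2 on the other strand and had 15, 48 and 53 counts in KD and 32, 63 and 68 in SCR libraries. Whether strand was used in counting is unknown here, and reads of such a pair may not have been told apart. ID4 was at 2.53 ± 0.254 CPM in KD and 2.15 ± 0.353 CPM in SCR libraries (edgeR adjusted p = 0.519). Summed over the list, ID genes reached 340 to 365 CPM in KD and 206 to 244 CPM in SCR libraries.

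**Figure D3:**
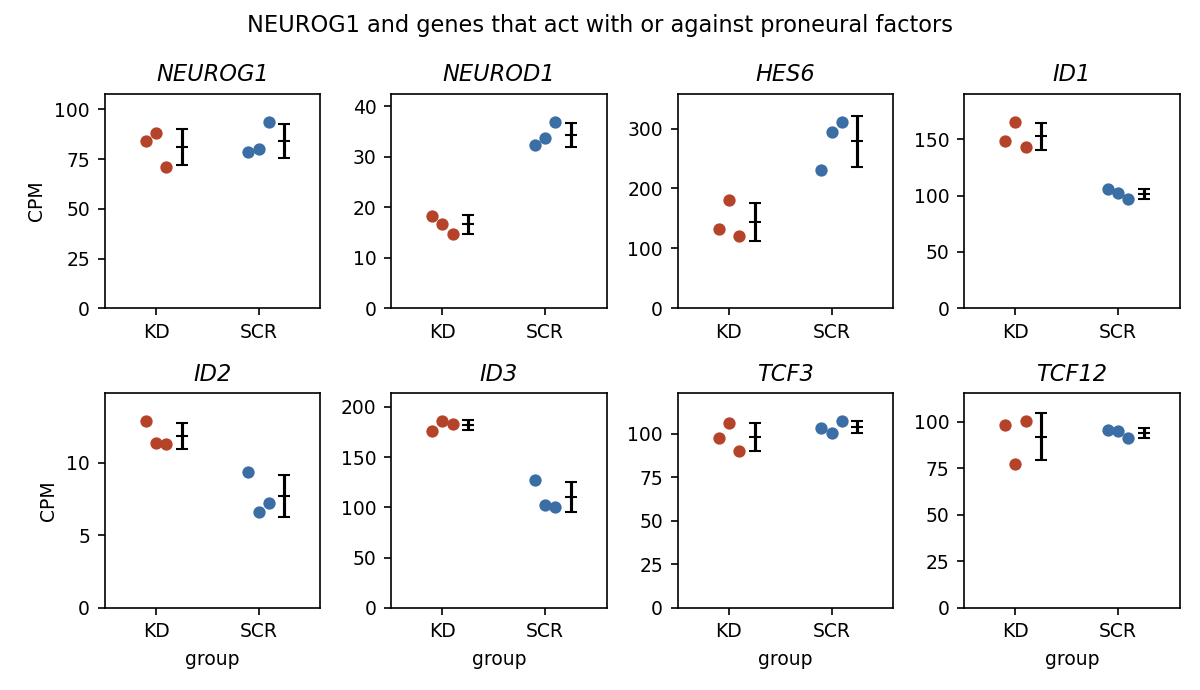
CPM by library for NEUROG1, for 5 partner or family genes that passed the test and for the E-protein genes TCF3 and TCF12; axes start at 0, points are libraries, and the bar beside them is the mean ± SD of 3. ID1, ID2 and ID3 lie higher in KD libraries, NEUROD1 and HES6 lie lower, and NEUROG1, TCF3 and TCF12 overlap.

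HES and HEY repressors gave 0 rises and 2 falls among 5 tested of 10 listed. HES6, an atypical member that opposes HES1 and favours neuronal differentiation, was at 132, 180 and 121 CPM in KD libraries and 230, 294 and 312 CPM in SCR libraries. The groups did not overlap, and it fell 1.93-fold (log2 change -0.95 ± 0.14, edgeR adjusted p = 0.000337). Its counts per NEUROG1 count were 1.56, 2.04 and 1.71 in KD libraries and 2.94, 3.67 and 3.32 in SCR libraries (exact 2-sided permutation p = 0.1, the smallest possible), a ratio also chosen after the values were seen. HEYL, a Notch target, fell 1.36-fold (edgeR adjusted p = 0.0270), but its adjusted p was between 0.0714 and 0.120 without KD library 2, KD library 3, SCR library 2 or SCR library 3. HES1, the main Notch-driven repressor of proneural genes, was at 7.62 ± 0.607 CPM in KD and 6.08 ± 0.617 CPM in SCR libraries (edgeR adjusted p = 0.121), and HEY2 at 0.547 ± 0.158 CPM in KD and 0.435 ± 0.290 CPM in SCR libraries (adjusted p = 0.764).

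Among relatives of INSM1 and MYT1 and other neuroendocrine factors, 2 of 10 listed were tested, and 1 was lower. PROX1, a homeobox factor of neuronal and endocrine lineages, was at 1.56, 1.72 and 1.51 CPM in KD libraries and 2.93, 4.69 and 4.14 CPM in SCR libraries (2.45-fold lower, edgeR adjusted p = 0.00146). PROX1-AS1, on the other strand, had 8, 23 and 22 counts in KD and 32, 61 and 43 in SCR libraries, and reads of the pair may not have been told apart. POU3F2, a neural POU factor, was at 3.85 ± 0.646 CPM in KD and 5.54 ± 1.152 CPM in SCR libraries, and its log2 change of -0.49 did not pass (edgeR adjusted p = 0.0677). It passed with upper-quartile scaling (adjusted p = 0.0472), with no low-count filter (0.0387) and with a replicate block (0.0315).

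REST silences neuronal and neuroendocrine genes outside neurons, and INSM1 recruits some of the same co-repressors. All 12 genes of this list were tested, and 2 rose and 2 fell. REST itself was at 43.8 ± 6.64 CPM in KD and 42.8 ± 1.503 CPM in SCR libraries (edgeR adjusted p = 0.872). The deacetylase HDAC1 rose 1.36-fold (edgeR adjusted p = 0.00182) and CTDSP2, a phosphatase that acts with REST, fell 1.32-fold (adjusted p = 0.00300). HDAC2 rose 1.18-fold (edgeR adjusted p = 0.0480) and CTDSP1, a relative of CTDSP2, fell 1.21-fold (adjusted p = 0.0278). Both were sensitive to single libraries. The adjusted p of HDAC2 lay between 0.0594 and 0.185 without KD library 1, 2 or 3, SCR library 2 or SCR library 3, and was 0.115 with upper-quartile scaling. Transcripts on the other strand overlap HDAC2 (HDAC2-AS2) and REST (NOA1), with the same limit on strand. That of CTDSP1 lay between 0.0778 and 0.143 without KD library 1, KD library 3, SCR library 2 or SCR library 3.

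Genes of the neuroendocrine secretory machinery had falls and no rises among those that passed the test. Of 22 listed 14 were tested, 0 rose and 8 fell, with a median log2 change of -0.34. UCHL1 went the other way but did not pass (1.17-fold higher, edgeR adjusted p = 0.0709). It was at 355, 393 and 345 CPM in KD libraries and 340, 305 and 291 CPM in SCR libraries. CADPS, which primes dense-core vesicles for release, was at 12.4, 12.8 and 10.6 CPM in KD libraries and 19.4, 24.1 and 24.98 CPM in SCR libraries. It fell 1.93-fold with no overlap of the groups (edgeR adjusted p = 0.000180). CPE, a prohormone-processing carboxypeptidase, averaged 91.2 ± 7.45 CPM in KD and 139 ± 6.86 CPM in SCR libraries (1.52-fold lower, edgeR adjusted p = 0.000294). NCAM1, a neural adhesion molecule used to diagnose neuroendocrine tumours, fell 1.53-fold (adjusted p = 0.000482), and SYT1, the calcium sensor of vesicle release, fell 1.49-fold (adjusted p = 0.000527). The granin genes CHGA, CHGB and SCG2, classic markers of such tumours, were low: CHGA had 1.04 to 1.88 CPM in KD and 1.32 to 1.76 CPM in SCR libraries, and CHGB and SCG2 did not pass the low-count filter. The count of calls in this list, in either direction, was 6 to 8 when 1 library was left out.

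Genes that proneural factors are known to switch on in other systems gave 0 rises and 4 falls among 9 tested of 20 listed. The median log2 change was -0.28. With 1 library left out, 3 to 6 genes of this list were called. SRRM4, a splicing factor for neuronal microexons, was at 8.19, 9.60 and 7.71 CPM in KD libraries and 15.7, 16.6 and 20.2 CPM in SCR libraries (2.05-fold lower, edgeR adjusted p = 0.000169). HES6 stands in this list too. CBFA2T2, a co-repressor of the MTG family, fell 1.48-fold (adjusted p = 0.00334). ELAVL2, a neuronal RNA-binding protein, fell 1.21-fold (edgeR adjusted p = 0.0400) with overlapping libraries, and its adjusted p lay between 0.115 and 0.130 without KD library 1, KD library 2, SCR library 1 or SCR library 2. DLL3, a Notch ligand downstream of proneural factors, was at 6.89, 6.52 and 4.22 CPM in KD libraries and 4.92, 5.87 and 4.02 CPM in SCR libraries (edgeR adjusted p = 0.458).

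Few markers of the cerebellar neuron lineages in which ATOH1 and its targets act could be tested. The share called over all tested genes was 31.7%. Among 6 tested of 12 granule neuron genes edgeR, DESeq2 and limma-voom called 0, and 0 had an unadjusted p under 0.05. CBLN1, a synaptic organiser of granule neurons, was at 125 ± 1.74 CPM in KD and 112 ± 4.94 CPM in SCR libraries (edgeR adjusted p = 0.135), and ZIC1, a zinc finger factor of their progenitors, at 65.0 ± 3.00 CPM in KD and 58.8 ± 1.88 CPM in SCR libraries (adjusted p = 0.205). TLX3 was at 3.97 ± 0.640 CPM in KD and 3.18 ± 0.365 CPM in SCR libraries (adjusted p = 0.295), and MEIS1 at 3.08 ± 0.426 CPM in KD and 3.92 ± 0.234 CPM in SCR libraries (adjusted p = 0.193). Of 5 unipolar brush cell genes OTX2 alone was tested. It fell 1.21-fold (edgeR adjusted p = 0.0202), and its adjusted p lay between 0.0620 and 0.107 without KD library 1, KD library 3, SCR library 2 or SCR library 3.

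**Figure D4:**
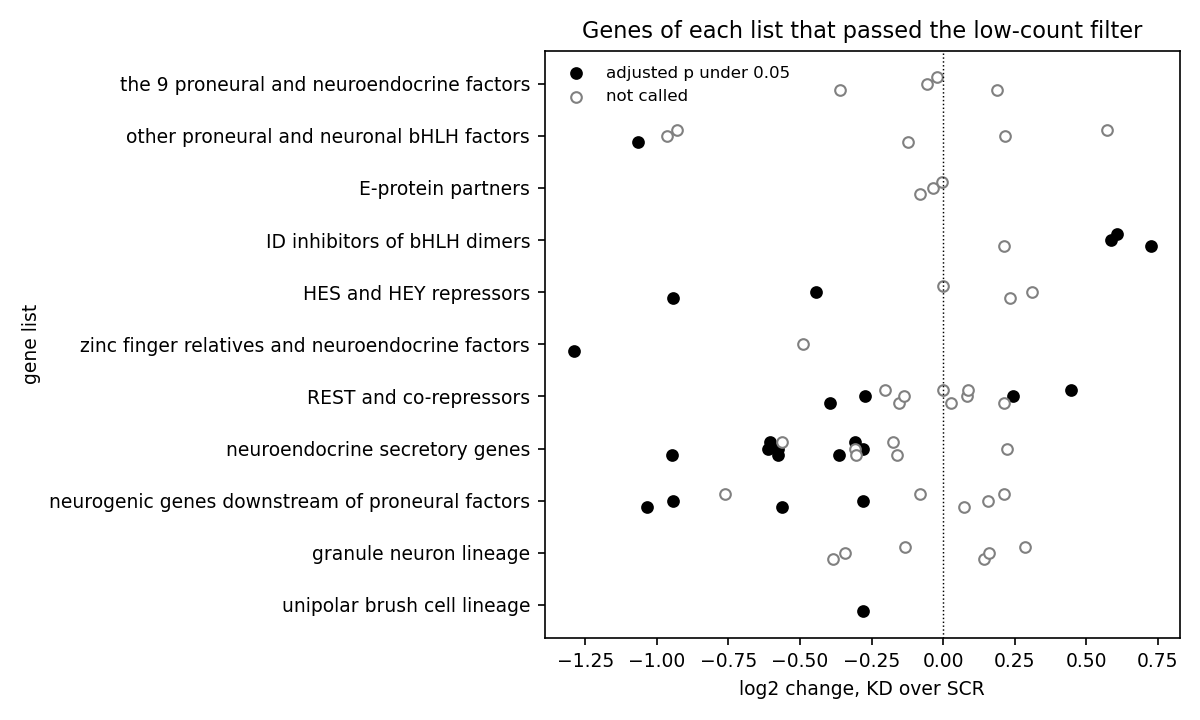
Log2 change, KD over SCR, of every gene that passed the low-count filter, by list; filled points have an edgeR adjusted p under 0.05. The 4 tested proneural and neuroendocrine factors are all open points, 3 of 4 ID genes are filled to the right of 0, and the 8 filled secretory genes lie to the left.

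Over all 10 lists together, 61 of 110 genes were tested, and 5 rose and 18 fell, with a median log2 change of -0.15. Upper-quartile scaling turned the even split of all tested genes into 1773 higher and 2803 lower, against 2328 and 2329 with TMM scaling.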

How the data were processed

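PolyA+ RNA of D283 Med cells was measured in 3 KD and 3 SCR libraries (TruSeq Stranded mRNA, per the labels). The submitters' processing notes name the build GRCh38.p13 and the tools the authors used: STAR 2.7.9a, Trim Galore 0.6.4 and RSEM. The version of RSEM, annotation release and strand setting are unknown here (not given in the sources used). The deposited values are whole numbers, read here as rounded RSEM expected counts; reads of paralogs may be shared among them. The 44 pseudoautosomal Y copies were added to X.

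Counts were tested with edgeR 4.0.16 (R 4.3.3): filterByExpr, TMM, the quasi-likelihood F test, no covariate, 2-sided, Benjamini-Hochberg over 14673 genes, threshold 0.05. SEs were derived from F. The fit was tested on simulated data. Alternatives were RLE and upper-quartile scaling, 2 other filters, DESeq2 1.42.0, limma-voom (limma 3.58.1), a replicate block, a stricter threshold and leaving out each library. Within groups every pair of libraries exceeded sampling noise (chi-square over its degrees of freedom, 2.81 to 16.5), so all 6 were counted. The 9 genes and all lists were chosen with earlier results of these data known. Named from each list were at most 4 tested genes with the smallest p; similar profiles were to be named for called members only, and there were none. Genes named beyond that rule were chosen after their values were seen. Of the listed genes, 1 that the rule names is not reported here.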

Additional observations from a re-analysis of the deposited data

How the results depend on the processing

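For the 4 tested members, 0 were called under every alternative run, and NEUROD2 and MYT1 kept their sign throughout. NEUROG1 ran from -0.13 to 0.0302 when 1 library was left out (positive without KD library 3 or SCR library 3). INSM1 was at 0.0865 with DESeq2, at 0.10 with limma-voom, and between -0.39 and 0.31 with 1 library left out; the cause was not tested, and its counts were 3 to 14 a library. All genes called ran from 2704 to 5114 with 1 library left out (1264 to 2604 higher, 1440 to 2510 lower; lowest without SCR library 2, then 2891 without SCR library 3), and were 2459 at an adjusted p of 0.01 (1190 higher, 1269 lower), a stricter threshold by construction. At that threshold the lists together had 11 falls, HES and HEY repressors 1 call, REST and co-repressors 2, secretory genes 5 and unipolar brush cell genes 0. Other bHLH factors had 2 calls with DESeq2. Zinc finger relatives had 2 with upper-quartile scaling, 3 with no low-count filter and 2 with the replicate block, and granule neuron genes had 1 with no filter. With 1 library left out, calls ran from 1 to 2 for other bHLH factors, 1 to 2 for HES and HEY repressors, 2 to 4 for REST and co-repressors, 0 to 1 for granule neuron genes and 0 to 1 for unipolar brush cell genes. Of the other genes named from the lists, TCF12 ran from -0.12 to 0.0812 (positive without KD library 2), TCF4 from -0.0871 to 0.0795 (positive without KD library 2 or SCR library 3) and HEY2 from -0.18 to 0.73 (negative without SCR library 1).

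Same-numbered libraries deviated from their group means with correlations of 0.03, 0.10 and -0.03 over tested genes, and KD library 1 correlated best with SCR library 3, so the numbers were not taken to pair libraries. The replicate block gave 4742 calls in place of 4657, called 0 members and left NEUROG1 at -0.06, NEUROD2 at 0.21, INSM1 at -0.04 and MYT1 at -0.36. Depth limits INSM1, NHLH1, NHLH2 and NEUROG2, whose counts reach at most 14 a library.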

Other observations

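Some genes of the lists that were left out by the low-count filter differed in the fit without it, and were picked out after their values were seen. INSM2, the paralog of INSM1, had 1, 2 and 2 counts in KD libraries and 8, 14 and 5 in SCR libraries (log2 change -2.08 ± 0.74, edgeR adjusted p = 0.0290). GADD45G, a growth arrest gene switched on by neurogenins in frog embryos, had 3, 4 and 6 counts in KD libraries and 9, 30 and 20 in SCR libraries (log2 change -1.86 ± 0.49, adjusted p = 0.00149). CNTN2, an axonal adhesion molecule of young granule neurons, had 3, 3 and 2 counts in KD libraries and 7, 14 and 16 in SCR libraries (log2 change -1.86 ± 0.61, adjusted p = 0.0166). In each of the 3 genes all KD libraries had fewer counts than all SCR libraries, and the groups did not overlap in CPM. Groups did not overlap in 46% of all tested genes. For CNTN2 the gap was small: KD library 1 was at 0.390 CPM and SCR library 1 at 0.410 CPM. The deposited totals differ, and KD library 1 was sequenced least deeply.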
